A study of Mus musculus with 6 samples.

Results

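The genes described here encode the ephrins, the Slits, the netrins and the receptors that bind them. They were taken by gene symbol from the array's annotation: every probe set whose symbol was an ephrin (Efna or Efnb with a number), an Eph receptor (Epha or Ephb with a number), a Slit, a Robo, a netrin (Ntn with a number), Dcc, Neo1 or one of Unc5a to Unc5d. The rule found 78 probe sets of 38 genes, 15 of them ligand genes and 23 receptor genes, among the 18194 genes that the array names by a single symbol. Of the 78 probe sets, 71 were bright enough to be tested, and they represent 34 genes, 13 ligands and 21 receptors.

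These molecules steer cells and axons by contact or over short distances. Ephrins are membrane-bound ligands: the A class is held by a lipid anchor and mostly binds EphA receptor tyrosine kinases, and the B class spans the membrane and mostly binds EphB receptors, with signals passing into both the ligand-bearing and the receptor-bearing cell. Slits are secreted proteins that repel growing axons through Robo receptors, and netrins are secreted, laminin-related proteins that attract axons through Dcc and neogenin or repel them through Unc5 receptors. In the olfactory system, ephrin-A and EphA proteins and the Slit-Robo pair help to sort sensory axons on their way to the olfactory bulb, while in stratified epithelia Eph receptors and ephrins are known from cell sorting and boundary formation.

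The cells came from the olfactory epithelium of CD1 mice, an outbred strain, at postnatal days 21, 22 and 24. Each of 3 litters was dissociated and passed through a flow cytometer after staining for the adhesion protein ICAM1 (CD54). The sort gave 1 ICAM1-positive and 1 ICAM1-negative sample per litter, so there were 3 arrays per sort and 6 in all. The labels name no transgene or treatment for any group, and age cannot be told apart from litter. The sort is a gate and not a cell type: it holds any dissociated cell with ICAM1 on its surface.

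A description field of each sample contradicts its title on the sort. Icam1 itself was read at 13, 16.1 and 33.2 on the arrays titled ICAM1-negative and at 7246.5, 6817.2 and 6857.1 on those titled ICAM1-positive, which follows the titles. The median intensity of an array lay between 87.9 and 102.8, and a value near or below that is called dim here. Of 10 genes of horizontal basal cells, the reserve stem cells of this epithelium, 9 were higher in the ICAM1-positive sort. Icam1, the gene of the sorted protein, is in this list, so its own rise was set by the gate. Of 14 macrophage genes 13 were higher as well, with a summed intensity of 21300 to 27494 against 1427.6 to 1838.5. Of 9 mature sensory neuron genes tested (3 more could not be), 8 were lower and 0 higher. Of 12 immature neuron genes 10 were lower and 1 higher. Of 11 vascular endothelial genes tested (2 more could not be), 1 was higher and 1 lower, and 10 of the 11 lay below the array median on every ICAM1-positive array. For comparison, 20.6% of all genes tested were higher and 20.8% were lower. The part of macrophages and neurons in the results on the guidance genes was not tested.

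Promoters were found in the RefSeq promoter table (build GRCm38.p6) for 33 of the 38 genes. Those of 6 genes are shown, each as the 250 bases before a start of the gene: Efna1 and Efna3 because these ligand genes lie next to each other and moved in opposite directions, Epha3 and Epha5 because they are receptors of one class that moved in opposite directions, and Efnb2 and Ephb1 because this B-class ligand and receptor both rose. Efna1 and Efna3 each have 2 starts in the table, of which the one listed first is shown. Capitals mark matches to the searched motifs named after the sequences, read 5′ to 3′ on the gene's strand.
Efna1, chr3:89280952-89281201, minus strand: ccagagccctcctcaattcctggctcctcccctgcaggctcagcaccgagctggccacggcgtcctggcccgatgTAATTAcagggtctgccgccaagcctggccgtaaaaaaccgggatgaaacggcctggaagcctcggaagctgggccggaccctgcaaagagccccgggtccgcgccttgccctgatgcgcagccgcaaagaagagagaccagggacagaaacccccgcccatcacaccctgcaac
Efna3, chr3:89322940-89323189, minus strand: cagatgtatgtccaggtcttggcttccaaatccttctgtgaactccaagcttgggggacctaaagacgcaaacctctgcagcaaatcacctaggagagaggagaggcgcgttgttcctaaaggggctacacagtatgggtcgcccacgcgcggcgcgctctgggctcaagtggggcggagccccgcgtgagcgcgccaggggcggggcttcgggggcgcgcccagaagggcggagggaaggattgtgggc
Epha3, chr16:63864176-63864425, minus strand: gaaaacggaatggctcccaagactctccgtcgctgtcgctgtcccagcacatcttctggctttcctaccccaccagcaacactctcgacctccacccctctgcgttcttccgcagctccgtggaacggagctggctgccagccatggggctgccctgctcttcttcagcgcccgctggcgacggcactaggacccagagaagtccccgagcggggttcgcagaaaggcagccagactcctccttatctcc
Epha5, chr5:84417383-84417632, minus strand: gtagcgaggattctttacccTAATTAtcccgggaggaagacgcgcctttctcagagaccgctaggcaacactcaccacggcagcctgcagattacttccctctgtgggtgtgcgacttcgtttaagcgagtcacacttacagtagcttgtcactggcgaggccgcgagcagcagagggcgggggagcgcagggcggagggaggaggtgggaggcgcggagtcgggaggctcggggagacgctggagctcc
Efnb2, chr8:8661243-8661492, minus strand: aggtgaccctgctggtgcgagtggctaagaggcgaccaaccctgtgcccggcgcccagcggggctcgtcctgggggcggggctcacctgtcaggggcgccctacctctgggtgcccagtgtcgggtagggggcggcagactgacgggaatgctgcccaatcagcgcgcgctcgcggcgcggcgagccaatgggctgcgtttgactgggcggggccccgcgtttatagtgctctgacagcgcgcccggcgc
Ephb1, chr9:102354694-102354943, minus strand: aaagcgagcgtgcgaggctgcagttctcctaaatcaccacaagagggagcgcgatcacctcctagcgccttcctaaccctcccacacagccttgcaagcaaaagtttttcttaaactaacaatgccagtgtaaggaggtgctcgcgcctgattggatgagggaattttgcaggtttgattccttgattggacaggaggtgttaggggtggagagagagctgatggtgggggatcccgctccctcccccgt
The motifs searched on both strands were the homeodomain core TAATTA, the E-box CAGCTG and the AP-1 site TGANTCA. The homeodomain core stood in the promoters of Efna1 (175 bases before the start) and Epha5 (230 bases before it), and it is found in 4.84% of the 32851 promoters of that length. Among the genes that rose, which have 17 promoters in the table, TAATTA was in 2, those of Robo3 and of the Efna1 start shown, and not in that of the other Efna1 start. Among the genes that fell, with 9 promoters, it was in 1, that of Epha5. CAGCTG, present in 13% of all promoters, was in 1 of the 17 (Ephb3) and 1 of the 9 (Robo2). The AP-1 letters, present in 6.75% of all promoters, were in 0 of the 17 and 0 of the 9. No 2 matches overlapped. These counts describe letters in a short window and say nothing about binding.

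Among both ligand and receptor genes, more were higher than lower in the ICAM1-positive sort. Of the 13 ligand genes tested, 7 were higher in ICAM1-positive cells and 3 lower, while 3 missed the threshold (limma, adjusted p under 0.05), with a median log2 difference (ICAM1-positive minus ICAM1-negative) of 1.77. Of the 21 receptor genes, 10 were higher and 3 lower, while 8 missed the threshold, with a median of 1.06. Over all 16399 genes tested, 20.6% were higher and 20.8% were lower (41.4% in all), with a median of -0.06. Counted as probe sets, 29 of the 71 were higher and 17 lower, against 16.9% higher and 18% lower (34.9% in all) of all probe sets tested. A probe set could enter the test through 1 sort alone. Slit3 and Unc5a did so, with every ICAM1-negative value under the intensity minimum of 16. With values under the array median raised to it, 6 ligand genes were higher and 4 lower, and 9 receptor genes were higher and 4 lower. The arrays of the sorts did not overlap for 11 of the 13 ligand genes and 16 of the 21 receptor genes, against 57.9% of all genes tested. The arrays of the sorts did not overlap for any of the 23 genes that passed, so each necessarily moved the same way in the 3 litters. In these bulk samples, fewer cells of a type and less RNA per cell cannot be told apart.

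The ephrin-A ligands did not move together. Efna1 was higher in the ICAM1-positive sort, Efna3 and Efna2 were lower, and Efna4 and Efna5 did not pass. Efna1, a ligand also made by epithelia and vessels, was read at 28.4, 46.1 and 40.1 on the ICAM1-negative arrays and at 501.5, 439.1 and 492.4 on the ICAM1-positive arrays (log2 difference 3.67 ± 0.23 SE, adjusted p = 0.000238). The ICAM1-negative values were all dim and the groups lay far apart. Against the array median, the rise was at least 4.94-fold. The gene's other probe set also rose (5.28), but only to values near the median (2.2 to 3.1 against 96.8 to 119.1).

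Efna3, another lipid-anchored ligand, ran the other way, at 2945, 2321 and 3393.8 in ICAM1-negative cells against 414.1, 356 and 491.6 in ICAM1-positive cells (-2.77 ± 0.23, adjusted p = 0.000458). Every ICAM1-negative array was above every ICAM1-positive one, and the gene's other probe set fell as well (-3.81). In the RefSeq gene table Efna1, Efna3 and Efna4 follow each other with 0 protein-coding genes between them, so neighbouring ligand genes of this cluster differed in direction. Efna4, the last of them, was read at 114.5 to 238.7 and 152.1 to 257.4, with overlapping groups (0.25 ± 0.36, adjusted p = 0.635).

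Efna2 was read at 215.3, 216 and 298.3 in ICAM1-negative cells and at 73.5, 40.3 and 98.3 in ICAM1-positive cells (-1.86 ± 0.37, adjusted p = 0.011), at least a 2.49-fold fall. The groups did not overlap, but the ICAM1-positive values were dim, the other probe set did not pass (0.14), and the call was lost without litter 1 (adjusted p = 0.0795) or with the gene's probe sets averaged (0.0542). Efna5, a ligand known for grading olfactory and visual axons, was bright in both sorts, at 1574.9 to 1928 and 1101.5 to 1278.9. Its groups did not overlap, yet its difference of -0.54 ± 0.17 missed the threshold (adjusted p = 0.0595), and it passed under 4 alternatives, with adjusted p = 0.0109 to 0.0297.

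Of the ephrin-B ligands, Efnb1 and Efnb2 rose and Efnb3 did not pass. Efnb2, the transmembrane ligand known best from arteries and from epithelial and neural boundaries, was read at 570.2, 340.8 and 415.4 in ICAM1-negative cells and at 2916.8, 2707.3 and 3227 in ICAM1-positive cells (2.77 ± 0.24, adjusted p = 0.000534). All 4 of its probe sets rose, by 0.94 to 3.18, but those with differences of 0.94 and 2.67 were dim on every array. Efnb1, the other B-class ligand that rose, was read at 148.9, 206.1 and 193.3 against 615.1, 759.8 and 645 (1.89 ± 0.20, adjusted p = 0.00114). All 3 of its probe sets rose, by 1.42 to 2.57. Efnb3, which is mainly neural, was read at 210.8 to 383.6 and 169.1 to 247.3, and its groups overlapped (-0.44 ± 0.29, adjusted p = 0.3).

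**Figure D1:**
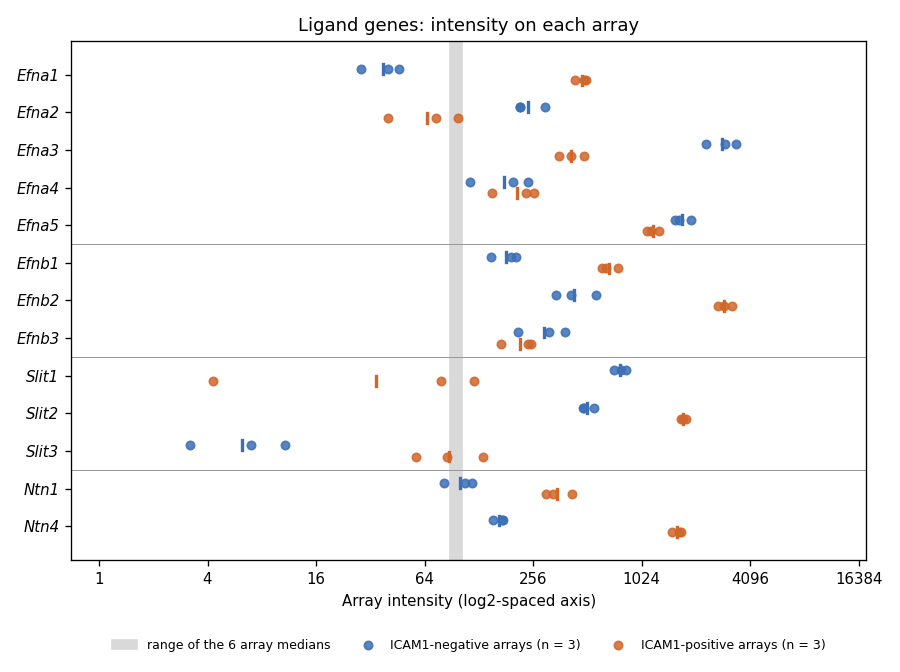
Intensity of the 13 tested ligand genes (rows, by family) on each array, on a log2-spaced axis; blue points are the 3 ICAM1-negative arrays, orange points the 3 ICAM1-positive arrays, short bars their geometric means and the grey band the range of the array medians (87.9 to 102.8). Efna1, Efnb1, Efnb2, Slit2, Slit3, Ntn1 and Ntn4 have their orange points to the right, Efna2, Efna3, Efna5 and Slit1 to the left, and only Efna4 and Efnb3 overlap.

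The receptors of the EphA class split into a group that rose and a group that fell. Epha1, Epha2 and Epha3 were higher in the ICAM1-positive sort, Epha5 and Epha7 were lower, and Epha4 and Epha6 did not pass. Epha3 was read at 55.5, 44.6 and 49.1 in ICAM1-negative cells and at 2198.1, 2220.2 and 1837.3 in ICAM1-positive cells (5.39 ± 0.18, adjusted p = 0.000124). The first group was dim throughout, so the rise is given as at least 21.5-fold. Of the gene's 4 probe sets 3 passed upward, and the fourth stood at 1.81 without passing.

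Epha2, the EphA receptor most typical of epithelia, was read at 8.5, 43.2 and 15 against 1329.2, 793 and 1287 (5.97 ± 0.62, adjusted p = 0.000954), a rise of at least 11.5-fold. Epha1, another epithelial receptor of this class, was read at 30.6, 12.2 and 9.9 against 357, 163.4 and 297.7 (4.07 ± 0.52, adjusted p = 0.00208), at least 2.68-fold. Both had ICAM1-negative values below the median on every array. Epha2 had 1 probe set, and a further probe set of Epha1 was dim and did not pass (0.84).

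Epha5, a receptor of developing and adult neurons, was read at 2935.6, 2715.2 and 2879.6 in ICAM1-negative cells and at 125.1, 232.3 and 254.1 in ICAM1-positive cells (-3.87 ± 0.30, adjusted p = 0.000411). All 4 of its probe sets fell, with differences of -1.80, -2.47, -3.87 and -4.35. Epha7, also a neural receptor, was read at 525.4, 364 and 436 against 183, 220.8 and 151.5 (-1.26 ± 0.23, adjusted p = 0.00873). Its other 3 probe sets fell further, with differences of -2.28, -2.33 and -3.34, while the call of the representing probe set, the one of highest mean log2 intensity, was lost without litter 1 (0.0915) or litter 3 (0.0891). On the same arrays, other lists ran lower as well as the neuron genes. The median was -3.72 for the mature neuron list (8 of 9 lower) and -3.71 for the immature one (10 of 12 lower, with the adhesion gene Nrcam higher by 6.08). It was -3.53 for globose basal cells and precursors (8 of 9 lower), -2.87 for motile ciliated cells (7 of 7 lower) and -1.43 for microvillar and tuft cells (5 of 9 lower). The part of these cells in the falls was not tested.

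Epha4 was dim, with 4 tested probe sets of which 0 passed, and Epha6 was dim on every array (2.4 to 53). No probe set of Epha8 or Epha10 was bright enough to test.

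All 4 EphB genes tested were higher in the ICAM1-positive sort, where 20.6% of all genes were. No probe set had Ephb2 as its only symbol, so nothing is said here of that gene. Ephb1, a receptor for ephrin-B ligands, was read at 216.7, 215.3 and 277.6 in ICAM1-negative cells and at 2179.7, 2414.9 and 2454.5 in ICAM1-positive cells (3.32 ± 0.18, adjusted p = 0.000178). The groups were 9.99-fold apart and each was tight. Ephb3, known from progenitor compartments of the gut epithelium, was read at 261.8, 238.1 and 258 against 1448.3, 972.6 and 1172.2 (2.23 ± 0.21, adjusted p = 0.000652).

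Ephb6, a receptor whose kinase domain is inactive, was read at 65.9, 56.4 and 42.2 against 446.3, 368.9 and 427.5 (2.94 ± 0.23, adjusted p = 0.000384), at least 4.28-fold. Ephb4, the venous partner of ephrin-B2, was read at 34.7, 22.3 and 25.8 against 149.6, 109.8 and 147.5 (2.31 ± 0.25, adjusted p = 0.00106). Its ICAM1-positive values were just above the median, so the rise is given as at least 1.39-fold. Each of these EphB genes had 1 probe set. Ephb4 and Efnb2 are also genes of vessels. Of the 11 endothelial genes tested, 1 was higher (Sox18, 26.1 against 57.6 in the ICAM1-positive sort), 1 was lower (Plvap, 136 against 52.5) and 9 did not pass, with a summed intensity of 699.1 to 773.1 in ICAM1-negative and 609.1 to 714.9 in ICAM1-positive samples. Their part in these results was not tested. On the arrays where these receptors rose, 13 of 14 macrophage genes did too (list median 3.56). So did 9 of 10 horizontal basal cell genes (7.88, Icam1 included). Of 7 Bowman gland genes 4 were higher and 0 lower (median 1.17), with a summed intensity of 12247 to 19321 against 35195 to 39649 in the ICAM1-positive sort. Of 8 sustentacular cell genes 3 were higher and 0 lower (median 0.05), with 28165 to 48712 against 52329 to 67616. These sums follow a few bright genes. In the Bowman gland list Bpifa1 rose from a mean of 13943 to 30638. In the sustentacular list Cbr2 rose from 9803.3 to 25138 and Krt18 from 2545.6 to 11961. The bright sustentacular genes Cyp2g1 (11042 against 9501.2) and Sec14l3 (10516 against 8984.1) did not pass. Of 9 fibroblast genes 2 were higher and 2 lower, and of 8 ensheathing glia genes 2 were higher and 1 lower. Of 9 pericyte and smooth muscle genes 1 was higher and 0 lower. The part of any of these cell types in the rises was not tested.

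**Figure D2:**
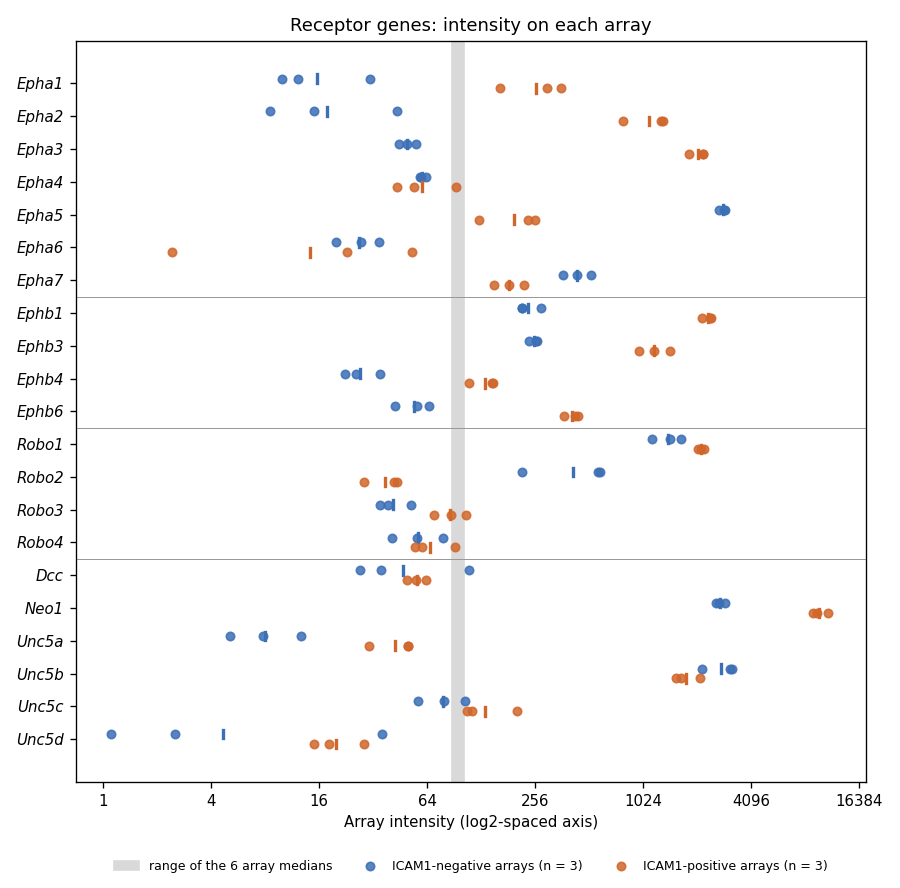
Intensity of the 21 tested receptor genes (rows, by family) on each array, drawn as for the ligands. The orange ICAM1-positive points of all 4 EphB genes and of Epha1, Epha2 and Epha3 lie to the right of the blue points, and those of Epha5, Epha7 and Robo2 lie to the left.

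The Slit ligands differed in direction. Slit2 was read at 558.1, 482.4 and 491.8 in ICAM1-negative cells and at 1804, 1725.6 and 1687.6 in ICAM1-positive cells (1.77 ± 0.16, adjusted p = 0.000622). The groups were tight and apart. Of its other probe sets, 1 in the dim range also rose (2.99) and 1 did not pass (0.38).

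Slit1, which is mostly made in the nervous system, was read at 837.5, 717.4 and 790.1 in ICAM1-negative cells and at 4.3, 119.5 and 78.8 in ICAM1-positive cells (-4.51 ± 1.25, adjusted p = 0.0362). The ICAM1-negative arrays were close together, and the ICAM1-positive ones were dim and scattered, so the size is uncertain. With litter as a paired block the call was lost (adjusted p = 0.0618). It was also lost without litter 2 or 3, any 1 ICAM1-negative array or ICAM1-positive array 3, with adjusted p from 0.0521 to 0.127. The other Slit1 probe set passed downward (-2.27, adjusted p = 0.0158). Slit3 passed upward (3.81, adjusted p = 0.00291) in the dim range: its values were 3.2 to 10.7 and 57.5 to 134.8, and once values under the array median were raised to it, the difference was 0.13 (adjusted p = 0.785).

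Among the Slit receptors, Robo2 fell and Robo1 did not pass. Robo2, a receptor of olfactory sensory neurons, was read at 577.4, 585.7 and 216.3 in ICAM1-negative cells and at 28.3, 43.5 and 41.9 in ICAM1-positive cells (-3.49 ± 0.45, adjusted p = 0.00214), at least 4.34-fold. Litter 3 was lowest among the ICAM1-negative arrays but still above all ICAM1-positive arrays, which were dim. Robo2 had 1 probe set. Slit1 also ran lower on the ICAM1-positive arrays, but its call was lost in 7 alternatives. The neuron, globose basal cell and precursor, motile ciliated, and microvillar and tuft cell lists ran lower too. Their part in the fall of Robo2 was not tested.

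Robo1, which is made by many cell types, was bright in both sorts, at 1453, 1151.3 and 1676.7 against 2081.8, 2246.9 and 2164.9. Its groups did not overlap, but the difference of 0.62 ± 0.20 missed the threshold (adjusted p = 0.0589). Under 6 alternatives it passed, with adjusted p from 0.0142 to 0.0491, and 1 of its other probe sets rose (0.96). In the RefSeq gene table Robo1 and Robo2 are neighbours with 0 protein-coding genes between them.

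Robo3, a receptor known from axons that cross the midline, passed upward in the dim range, at 35.1 to 51.9 against 69.6 to 105.9 (1.06 ± 0.25, adjusted p = 0.0207). Leaving out litter 1, 2 or 3 ended that call (adjusted p = 0.0693, 0.126 and 0.0824), as did leaving out ICAM1-negative array 2 or 3 or ICAM1-positive array 1 or 2 (0.0561 to 0.065). Raising low intensities to the median also ended it (0.02, adjusted p = 0.996). Robo4, the Robo of blood vessels, was dim in both sorts, at 41 to 78.2 and 54.6 to 91.3, and did not pass.

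Both netrin genes that could be tested were higher in the ICAM1-positive sort, where 20.6% of all genes were. Ntn4, a netrin of basement membranes, was read at 152.6, 171.6 and 173 in ICAM1-negative cells and at 1500.5, 1681.4 and 1636.7 in ICAM1-positive cells (3.28 ± 0.16, adjusted p = 0.000156). The groups were 9.70-fold apart. A dimmer probe set of the gene did not pass (1.93, adjusted p = 0.115). Ntn1, the netrin best known as an axon attractant, was read at 81.9, 107.4 and 117.3 against 330.6, 420 and 302.8 (1.78 ± 0.23, adjusted p = 0.00211). Its ICAM1-negative values were near the median, and its other, dim probe set did not pass (-0.33). Ntn3 and Ntn5 were too dim to test.

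Of the 6 netrin receptor genes, 2 were higher (33.3%) and 4 did not pass. Over all genes tested, 41.4% passed in either direction and 20.6% were higher. Neo1, which encodes neogenin, a receptor for netrins and for the repulsive guidance molecules, was read at 2627.2, 2705.9 and 2930.7 in ICAM1-negative cells and at 9076.6, 11061.5 and 9500.2 in ICAM1-positive cells (1.84 ± 0.17, adjusted p = 0.000657). The groups lay 3.58-fold apart with little spread. That probe set has the suffix s, which the array's maker gives to probe sets that can match several transcripts. A probe set without that suffix rose by the same amount (677.1, 654 and 939.3 against 2520, 3198.8 and 2350.5; 1.84, adjusted p = 0.00196). Of the other 3, 1 passed upward (1.79) and 2 did not (1.27 and 1.40).

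Dcc, the attractive netrin receptor of neurons, was dim, and its probe sets disagreed. The one of highest mean log2 intensity did not pass, at 109.8, 26.9 and 35.3 against 55.4, 49.6 and 63.3 (0.25, adjusted p = 0.766). The other 2 passed downward (-5.06 and -4.92), from 45.2 to 70.2 in ICAM1-negative cells to 1.1 to 4.4 in ICAM1-positive cells, all below the array medians, so no fold is given.

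Unc5b, a repulsive netrin receptor found in vessels and neurons, was bright in both sorts at 3123.1, 2171.4 and 3216.6 against 1671.8, 1564.7 and 2119.2. Its groups were nearly touching, and the difference of -0.66 ± 0.24 missed the threshold (adjusted p = 0.0812) but passed under 7 alternatives, with adjusted p from 0.00862 to 0.0485, the largest with litter as a paired block. Its other probe set fell (adjusted p = 0.016). Unc5a, a neural Unc5 receptor, passed upward with all arrays dim, at 5.1 to 12.6 against 30.3 to 50.1 (2.41, adjusted p = 0.00542). The Unc5a call was lost without litter 2 (0.0692). Unc5c was read at 57 to 104.4 and 106.2 to 203.6 and did not pass (0.79, adjusted p = 0.14), and Unc5d was dim on every array and did not pass. Without litter 3, Unc5d passed upward (3.77, adjusted p = 0.0203), and likewise without ICAM1-negative array 3 (3.57, adjusted p = 0.0067).

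Probe sets of the same gene moved together wherever more than 1 passed. Of the 20 genes with several tested probe sets, 0 had calls in both directions, and for 7 every tested probe set passed the same way: Efna1, Efna3, Efnb1, Efnb2, Slit1, Epha5 and Epha7. Each of the other genes held at least 1 probe set that did not pass.

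**Figure D3:**
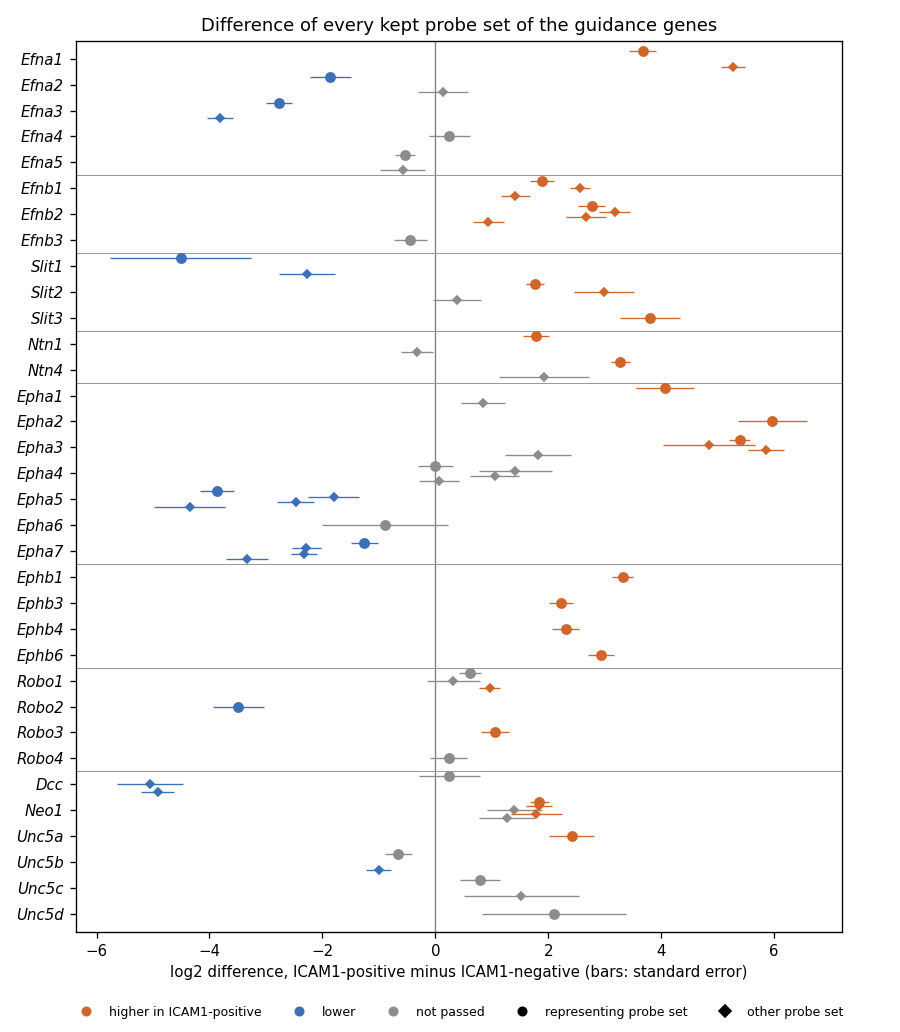
log2 difference (ICAM1-positive minus ICAM1-negative, with its standard error) of each of the 71 tested probe sets, in rows by gene; circles are the probe set of highest mean log2 intensity of a gene and diamonds the others, orange where higher, blue where lower and grey where the test was not passed. No row holds both orange and blue, and the diamonds of Dcc stand apart from its circle.

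Genes that act beside or below these receptors were taken from 3 lists, and over all of them the calls ran both ways: of 57 genes tested, 16 were higher and 18 lower, or 28.1% and 31.6% against 20.6% and 20.8% of all genes, with a median of -0.03. Of 13 other ligands and ligand partners, 1 was higher and 6 were lower. Flrt3, a membrane protein that binds Unc5 and Robo receptors, rose from 139.4, 159.9 and 89.7 to 950.4, 1243.4 and 1059.1 (3.10 ± 0.27, adjusted p = 0.000553). Its relative Flrt1 fell from 5868.7, 6149.9 and 7009 to 388.8, 664.5 and 840.9 (-3.40 ± 0.32, adjusted p = 0.000668). The contactin gene Cntn4 (-4.02) and Lrrn1 (-2.57), both membrane proteins with adhesion-type domains, fell too.

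Of 25 adaptors and kinases tested, 7 were higher and 8 lower. Dock1, an activator of the GTPase Rac below netrin receptors, rose from 244.3, 304.1 and 259.1 to 1828.5, 2226.5 and 1893 (2.88 ± 0.18, adjusted p = 0.000241). The scaffold gene Anks1b (-2.68), the ubiquitin ligase gene Trim9, whose product binds Dcc (-2.46), and the kinase gene Fyn (-2.20) fell. All 3 lie in the same direction as the neuron lists and the other cell lists that ran lower. The part of those cells was not tested.

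Of 19 GTPases and their regulators, 8 were higher and 4 lower. The Slit-Robo GTPase activating genes, whose proteins bind Robo tails, parted: Srgap3 rose from 147.9, 200.7 and 196 to 2072.4, 2337.4 and 2212.9 (3.62 ± 0.19, adjusted p = 0.000176), Srgap1 fell from 1602.2, 876.1 and 1912.5 to 191, 183.9 and 230.9 (-2.79 ± 0.33, adjusted p = 0.00154), and Srgap2 stood at -0.03 (adjusted p = 0.915). Chn1, which encodes a Rac-inhibiting protein below EphA4, fell by at least 5.53-fold, and its paralog Chn2 rose (2.31). Kalrn, a gene of neurons whose product acts below EphB receptors, fell from 3766.2, 2817.2 and 3506.8 to 171.1, 216.4 and 310 (-3.89 ± 0.27, adjusted p = 0.000308).

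**Figure D4:**
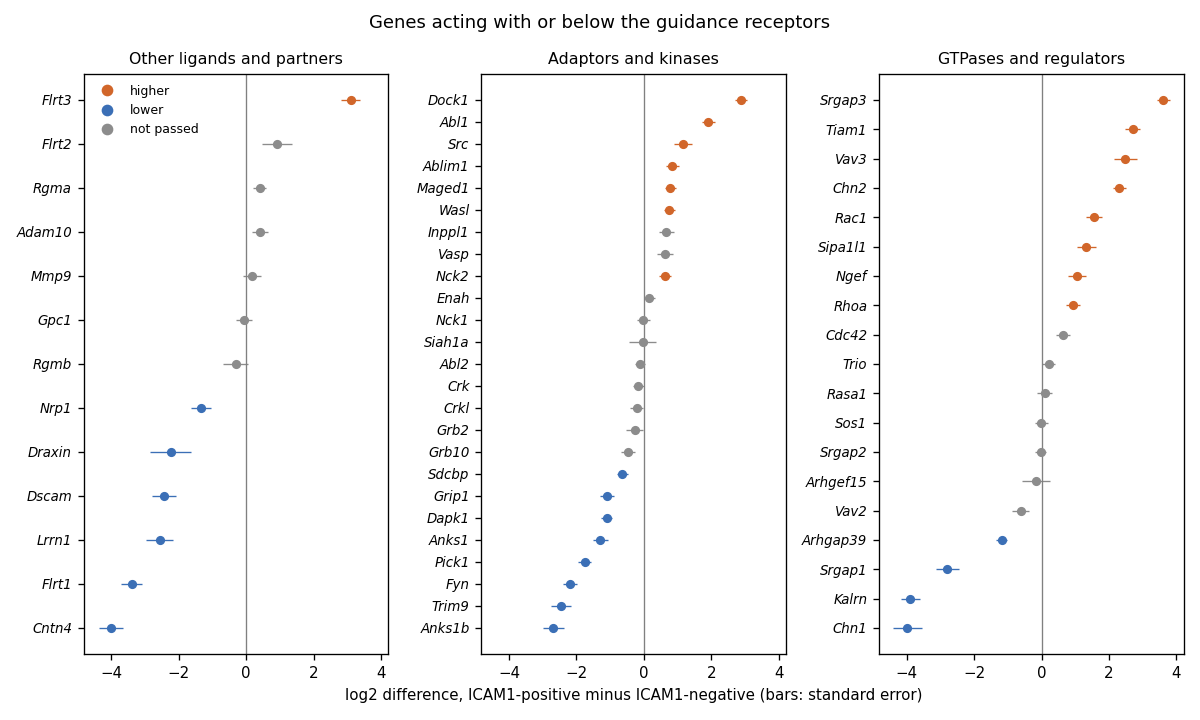
log2 difference (ICAM1-positive minus ICAM1-negative, with its standard error) of 57 genes known to act with or below the guidance receptors, in 3 lists of 13, 25 and 19 genes; orange is higher, blue lower and grey not passed. Points lie on both sides of 0 in every list, from Cntn4 at -4.02 to Srgap3 at 3.62.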

How the data were processed

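RNA of sorted cells was extracted with TRIzol and, after 2 rounds of amplification, read on Affymetrix arrays of the mouse genome, per the labels' protocols. The authors deposited linear intensities for 6 arrays. GCRMA appears in the submitters' processing notes, and it would give log2 values of near-equal quantiles, but the deposited intensities had array-specific quantiles and a 2% trimmed mean of 500 on every array. The program that made them is not given in the sources used here.

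Without the 64 control probe sets, 38694 probe sets had a log2 intensity above 4 on at least 3 arrays. They were fitted with limma 3.58.1 (R 4.3.3) by lmFit and eBayes without trend or block, with Benjamini-Hochberg adjustment over all of them. The script was tested on simulated data. Log2 differences are ICAM1-positive minus ICAM1-negative, with standard errors. A gene is represented by its tested probe set of highest mean log2 intensity. Genes that passed with a brighter sort above the array median, 20 in all, are given in full; the other 3 that passed are called dim. Of each partner list, the 4 called genes that differed most are named, and others were chosen after their values were seen. A fold is a minimum where every array of the dimmer sort was under its median and every array of the brighter sort above; that median then replaces the dim value. Levels of different genes were not compared.

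Litters pair the arrays, per the series text. Deviations from the sort means correlated at 0.127, 0.199 and 0.0812 within litters and at -0.15 to 0.033 across them. The deviations of a sort cancel out, so positive values within litters push those across litters below them, and the contrast was not tested. A planned search of promoters for the EBF palindrome is not reported here. Members and lists were chosen with earlier results of these data known. Scan batches were not used here, and the number of arrays limits the precision.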

Additional observations from a re-analysis of the deposited data

How the results depend on the processing

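Of the 23 guidance genes called, 17 kept direction and call in all 19 alternatives; Efna2, Epha7, Robo3, Slit1, Slit3 and Unc5a did not. Of all probe sets 6528 were higher and 6984 lower, and leaving out litters or arrays moved them to between 3764 and 5854 higher and between 3678 and 6013 lower; litters 1 (3764 and 3678) and 3 (3775 and 3915) mattered most. Over the same omissions, 7 ligand genes were higher each time and 2 to 3 lower, and 8 to 10 receptor genes were higher and 2 to 4 lower. The 3 lower receptor genes became 5 with the stricter filter (log2 above 6) and 5 with the mean over a gene's probe sets. Dcc turned from 0.25 to -4.92 with that filter, which dropped the probe set that otherwise represents it, and to -3.24 with the mean. Unc5a turned to -0.00081 when values under the array median were raised to it, because all its values lie there. Quantile normalization left 23 of 23 calls. With litter as a replicate block, counts were 6899 and 7476 probe sets, 7 ligand genes higher and 2 lower, and 10 receptor genes higher and 4 lower; Slit1 lost its call, Unc5b gained one and no other member call changed. One alternative, leaving out probe sets of suffix s or x, was chosen after seeing the data and changed 0 calls. It reused the main fit and among members only replaced the Neo1 probe set by another that had passed. Its outcome was therefore fixed in advance. Signal near the array median limits every size given as a minimum.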
